A study of Mus musculus with 4 samples.

Results

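The genes described are 4 S100 genes (S100a4, S100a6, S100a10 and S100a11), 2 galectin genes (Lgals1 and Lgals3), 2 annexin genes (Anxa1 and Anxa2), Crip1 and Vim, in cultured CD4 T cells with or, per the labels, without the transcriptional repressor Bach2. They were chosen by name as calcium-binding, sugar-binding, membrane-binding and cytoskeletal genes of effector T cells, and make up 10 of the 18749 named genes on the array. They were read by 11 of its 41173 probes, 1 probe each except Anxa2, which had 2. On each of the 4 arrays every member probe cleared the background, and none was saturated or flagged, so all 10 genes entered every comparison.

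The cells came from spleens of C57BL/6J mice, recorded in the labels as female. The group labelled Bach2 KO (Bach2-deficient) carried Bach2 flox/flox and a CD4-Cre transgene, and the control group was labelled Bach2 WT. Cre driven by Cd4 regulatory sequence acts from the CD4-expressing stage of thymocytes, in later CD8 T cells as well as CD4 T cells. The study describes its WT control mice as CD4-Cre animals, while the labels of these arrays give only Bach2 WT, and how many mice were pooled is not given in the sources used here. Naive CD4 T cells (CD44 low, CD62L high, CD25 negative) of each genotype were stimulated with 3 μg/ml of antibody to TCR-β and 1 μg/ml of antibody to CD28 for 2 days, then kept with 2.5 ng/ml of IL-2 (per the labels, the study's methods giving another dose) for a further 3 days, and profiled either at that point or after 4 h of re-stimulation on immobilized antibody to TCR-β without added IL-2. Each of the 4 conditions had 1 array, so no difference below has a replicate check or a p-value, and a difference between genotypes cannot be told apart from one between mice, cultures or arrays.

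S100 proteins are small calcium-binding proteins that work as dimers, and S100a10, which does not bind calcium, forms a complex with Anxa2 at the plasma membrane. Galectins bind β-galactoside sugars on glycoproteins such as CD45 and can act outside the cell. Annexins bind membrane phospholipids when calcium rises. Crip1 is a small LIM-domain protein and Vim encodes vimentin, the intermediate filament protein of leukocytes. Many of these transcripts are low in naive T cells and accumulate in effector and memory cells.

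Because the purpose of the study was to find how Bach2, which binds AP-1-like DNA sites, acts in CD4 T cells, the 250 bases upstream of the start of the genes were searched for the AP-1 site TGACTCA and for TGAGTCA, which is the same site read on the other strand. RefSeq promoter sequences (GRCm38.p6) were at hand for 8 of the 10 genes, all but S100a10 and Lgals1. The site was present in 2 of the 8, S100a11 and Anxa2, against 1395 of all 27025 genes with an entry, 5.16%, or 1466 of 32851 promoters (4.46%). S100a11 (chr3:93520246-93520495, plus strand) held 2 copies, which began 136 and 38 bases before the start. Anxa2 (chr9:69453433-69453682, plus strand) held 1 copy, which began 95 bases before it, and Anxa1 (chr19:20390672-20390921, minus strand) held none. These 3 are shown because S100a11 and Anxa1 had the largest positive differences between genotypes before re-stimulation and Anxa2 the largest negative one, with each sequence written 5′ to 3′ on the strand of its gene and the site in capitals. A match describes the letters only, and binding was not measured here.
S100a11: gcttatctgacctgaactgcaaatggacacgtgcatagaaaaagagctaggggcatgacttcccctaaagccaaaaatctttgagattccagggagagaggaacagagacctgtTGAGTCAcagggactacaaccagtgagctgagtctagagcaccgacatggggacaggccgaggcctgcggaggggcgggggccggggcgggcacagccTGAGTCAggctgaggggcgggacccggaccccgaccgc
Anxa2: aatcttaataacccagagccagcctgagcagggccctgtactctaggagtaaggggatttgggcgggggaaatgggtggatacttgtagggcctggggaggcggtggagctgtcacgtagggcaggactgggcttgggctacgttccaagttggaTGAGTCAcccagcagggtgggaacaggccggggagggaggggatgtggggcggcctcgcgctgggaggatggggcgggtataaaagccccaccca
Anxa1: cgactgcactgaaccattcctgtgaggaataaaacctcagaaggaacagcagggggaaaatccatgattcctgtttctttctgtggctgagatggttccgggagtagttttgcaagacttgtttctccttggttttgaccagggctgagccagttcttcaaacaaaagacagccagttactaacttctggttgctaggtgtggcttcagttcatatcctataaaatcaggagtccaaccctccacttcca

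Some facts of the arrays bear on every genotype comparison. The Bach2 probe read 2932 and 2633 on the WT and KO arrays before re-stimulation and 3310 and 3080 after it, and where it lies relative to the floxed part is not given, so it did not check the genotype labels. Eif2s3y, a Y-linked gene, read 1185 and 951 on the arrays labelled KO and was not well above background on either WT array. All labels say female, although the study's methods state that mice of both sexes were used for cultures. Xist was well above background on all 4 arrays, at 9524 (WT) and 4623 (labelled KO) before re-stimulation and 5221 and 2585 after it. After scaling, Xist was lower on the KO-labelled arrays by 1.04 and 1.19 on the log2 scale. All 7 T cell markers were well above background on every array, with summed signals of 328 to 385 times the 75th percentile of the array. Of 10 mast cell and basophil markers 7 were well above background on each KO-labelled array and 3 and 2 on the WT arrays, and their summed signal was 15.9 and 28.9 on the KO-labelled arrays against 0.52 and 1.11. Most of that sum was Cyp11a1, a steroid-synthesis enzyme, at signals of 5621 and 8478, and the other 9 markers summed to 2.93 and 4.89 against 0.37 and 0.83. The basophil protease gene Mcpt8 read 309 and 333 on the KO-labelled arrays, Cpa3 read 339 and 195, and Prss34 read 293 and 244. Of these only Prss34 cleared the background on a WT array, at 32.8 before re-stimulation. By contrast, Ms4a2, Mcpt4 and Tpsb2 did not clear the background anywhere. Of 10 myeloid markers 4 and 3 were above on the KO-labelled arrays and 4 and 2 on the WT arrays, with sums of 1.71 and 1.00 against 0.57 and 0.23. At least 2-fold higher on the KO-labelled arrays were 3 of 5 compared before re-stimulation and 3 of 3 after it, with 0 lower. They were Adgre1 (2.23-fold and 2.95-fold), Mpo (4.92-fold and 2.99-fold) and S100a9 (at least 9.94-fold and 6.95-fold). Of all genes 5.26% and 5.17% were as much higher. Under some alternatives Adgre1 and, after re-stimulation, Mpo came short of 2-fold. No array showed Lyz2 or Itgam well above background. Cd8a was well above background only on the KO-labelled array after re-stimulation, at a signal of 63.0. The B cell, NK cell, dendritic and stromal cell lists had 1 to 3 of 4 or 5 markers above background per array, with sums of 0.047 to 1.32. Of 6 reference genes 0 reached 2-fold between genotypes (medians 0.015 and -0.040). The part of these cells and of the sex difference in the values below was not tested. In RNA from a whole culture, a change in the share of cells that express a gene cannot be told apart from a change in its RNA per cell.

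Before re-stimulation, 8 of the 10 genes read higher on the array labelled Bach2-deficient and 2 read lower, beside 49.6% of all genes higher and 50.4% lower. Differences are given as log2 of the KO-labelled signal over the WT signal, each first divided by the 75th percentile of all probes on its array, whereas signals are printed before that scaling. The median over the 10 genes was 0.35, against -0.0033 over all 12136 genes compared, and it was 0.34 without Anxa1. After re-stimulation, on the other pair of arrays (the sources used here do not say whether from the same cultures), 8 again read higher and the same 2 lower, with a median of 0.31 against 0.016 over 12348 genes. Of those 12348 genes 51.9% read higher and 48.1% lower. By a 2-fold rule only Anxa1 stood out in either comparison. That is 1 gene of 10, beside 5.26% of all genes at least 2-fold higher and 2.82% at least 2-fold lower before re-stimulation, and 5.17% and 3.85% after it. As a yardstick of measurement scatter, different probes of the same gene differed in their log2 difference by a median SD of 0.088 before and 0.11 after re-stimulation. This leaves out all variation between mice, cultures and hybridizations. In each genotype comparison 7 members were higher and 2 lower by more than it and 1 was within it, beside 37.0% of all genes higher and 37.0% lower before re-stimulation, and 38.1% and 34.8% after it.

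**Figure D1:**
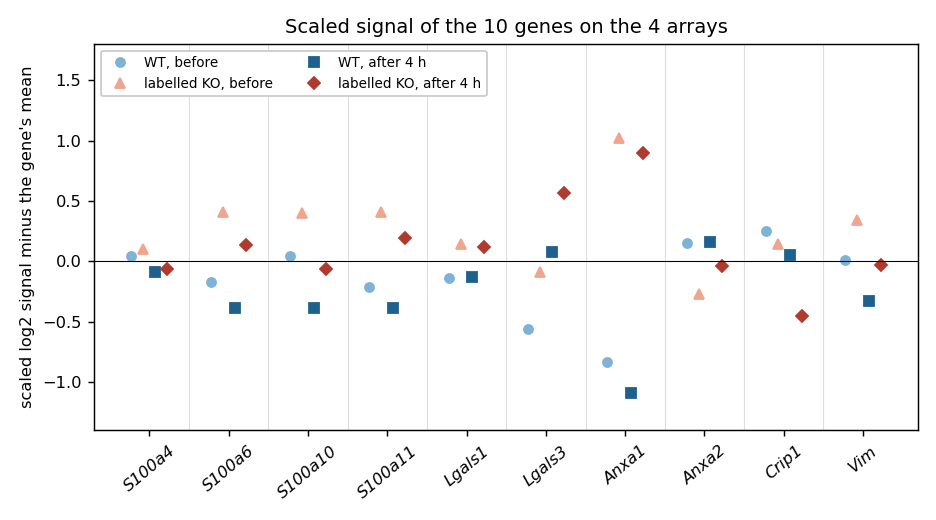
Scaled log2 signal of each of the 10 genes on the 4 arrays, as the distance from that gene's own mean over the arrays (vertical axis, log2 units), with 1 point per array and no error bars since each condition had 1 array. Anxa1 shows the widest gap between genotypes (1.85 before and 1.98 after re-stimulation), Lgals3 is higher after re-stimulation in both genotypes, and Crip1 is lowest on the KO-labelled array after re-stimulation.

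Of the S100 genes 3 read higher in the cells labelled Bach2-deficient and S100a4 stood apart. S100a6, a calcium-binding protein that partners with annexins, gave signals of 113987 (WT) and 169591 (labelled KO) before re-stimulation, and 70426 and 113846 after it. It was therefore 1.49-fold and 1.43-fold higher in the cells labelled Bach2-deficient (0.58 and 0.52 on the log2 scale). S100a11, which binds annexins through its dimer, read 3664 and 5604 before and 2321 and 3914 after, a difference of 1.54-fold and 1.49-fold (0.62 and 0.58). These were the largest differences after Anxa1, but they exceeded those of S100a6 by less than the probe scatter. Before re-stimulation, 8.99% of all genes were as high as S100a11. S100a10, the Anxa2 partner, read 30754 and 39218 before and 16308 and 23016 after, which was 1.28-fold and 1.25-fold higher (0.36 and 0.32). S100a4, a metastasis-associated S100 protein that binds non-muscle myosin and is abundant in memory T cells, did not follow them. Its signals were 116657 and 120502 before and 75912 and 87486 after, differences of 0.054 and 0.031 on the log2 scale that were within the probe scatter, the first of them turning to -0.0073 when the arrays were scaled to their median. The median of the 4 S100 genes was 0.47 before and 0.42 after re-stimulation.

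Both galectins read higher on the KO-labelled arrays. Lgals1, a secreted galectin that can crosslink T cell surface glycoproteins, had signals of 165461 and 200995 before and 119793 and 160686 after, 1.22-fold and 1.19-fold apart (0.29 and 0.25). Lgals3, the chimera-type galectin, read 12633 and 17382 before and 14030 and 22299 after, 1.38-fold and 1.41-fold apart (0.47 and 0.49). For Lgals1, 19.7% and 25.4% of all genes were as high in the same comparisons, and for Lgals3 12.5% and 13.4%.

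The annexins went opposite ways. Anxa1, known as a mediator of glucocorticoid action and a ligand of formyl peptide receptors, gave 891 (WT) and 3200 (labelled KO) before re-stimulation, and 535 and 2383 after it. Both KO-labelled readings were above both WT readings, a difference of 3.61-fold (log2 1.85) and 3.95-fold (1.98). Only 1.83% of genes were as high before and 1.38% after re-stimulation. Anxa2, which links membranes to actin and holds S100a10 at the cell surface, read 24898 and 18487 before and 17942 and 17614 after, 1.34-fold and 1.15-fold lower in the cells labelled Bach2-deficient (-0.42 and -0.20). Its other probe, at 11767 and 8678 before and 8342 and 8616 after, gave -0.43 and -0.13. The probes therefore gave nearly the same difference before re-stimulation and kept its sign after it, when that of the other probe lay close to the probe scatter of 0.11. The partners S100a10 and Anxa2 thus differed in opposite directions before re-stimulation. After it their signs were again opposite, with Anxa2 beyond the probe scatter (-0.20) but close to it by its other probe (-0.13).

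Crip1 and Vim also differed from each other. Crip1 read 54545 and 50430 before, a difference of -0.11 that turned positive (0.031) when the arrays were scaled to the probe for Cd3e, a subunit of the T cell receptor complex, instead of the 75th percentile, and 34023 and 26990 after, which was 1.42-fold lower (-0.51). Vim read 40332 and 50774 before and 22903 and 31839 after, 1.26-fold and 1.23-fold higher (0.34 and 0.30). Vim's 2 differences were close to those of S100a10. For Crip1, 34.5% of all genes were as low before re-stimulation and 11.2% after it.

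**Figure D2:**
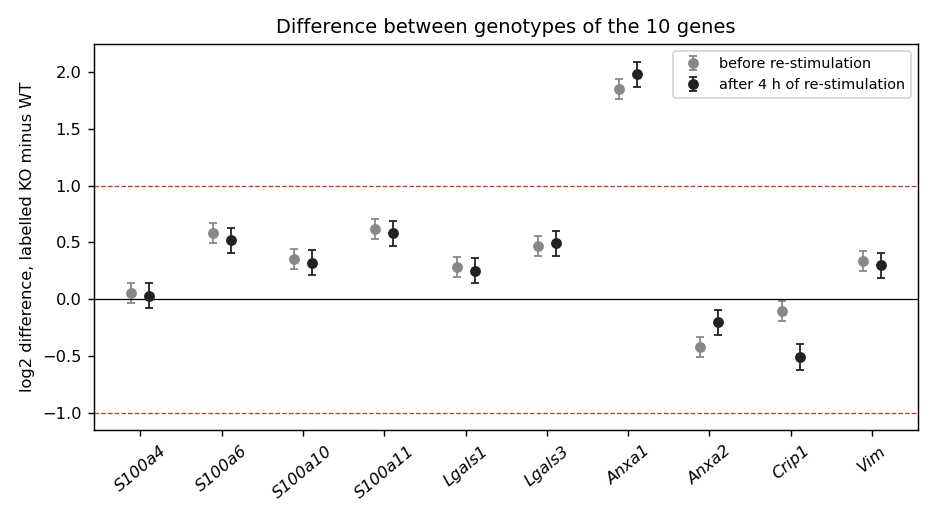
Log2 difference between the arrays labelled KO and WT for each of the 10 genes (vertical axis), before and after re-stimulation, 1 point per comparison, with bars of 1 probe SD (the scatter between probes of 1 gene, 0.088 before and 0.11 after) and dashed lines at 2-fold. Anxa1 is past the 2-fold line in both comparisons, Anxa2 and Crip1 lie below 0, and the bars of S100a4 span 0.

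**Figure D3:**
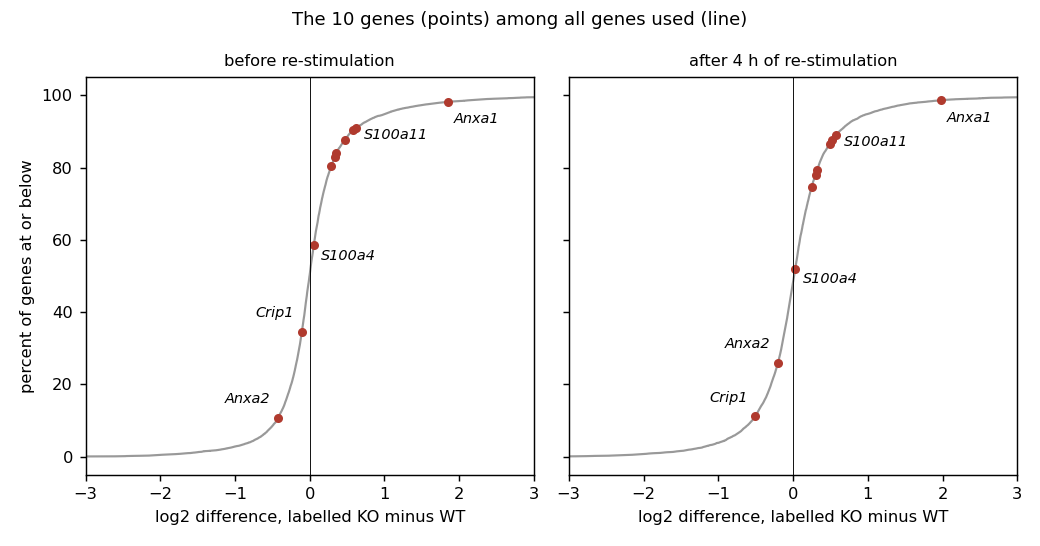
Percent of all genes compared (12136 before and 12348 after re-stimulation) at or below each log2 difference between arrays labelled KO and WT (grey line), with the 10 genes as points on it. Anxa1 lies in the upper tail, with 1.83% and 1.38% of genes as high, and the other members lie on the steep part and the shoulders of the curve.

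Over 4 h of re-stimulation Lgals3 read higher and S100a10, Vim and, in cells labelled Bach2-deficient, Crip1 read lower, all by less than 2-fold. None of the 10 genes (0) reached 2-fold in either genotype, beside 13.2% of all genes at least 2-fold higher and 13.5% lower in WT cells, and 12.4% and 13% in cells labelled Bach2-deficient. On the main scaling 3 genes read higher and 7 lower after re-stimulation in WT cells, beside 49.8% of all genes higher and 50.2% lower. In the cells labelled Bach2-deficient 2 read higher and 8 lower, beside 50.6% and 49.4% of all genes. The median was -0.19 in each, but with scaling to Cd3e both medians turned positive (0.11 and 0.066). That scaling moved every gene by the same amount (0.30 and 0.26). Relative to the median of all genes, the members' median stood at -0.18 and -0.20 under the main scaling. Scaling to the median of all probes or to Cd3e cannot change these values, since each shifts all genes of an array equally. They were -0.28 and -0.29 with quantile normalization, and -0.30 and -0.31 with normexp and quantile normalization. Without a filter on dim probes they were -0.52 and -0.49, and with both arrays well above background -0.15 and -0.17.

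Lgals3 kept its direction under all 9 alternatives. It was 1.55-fold higher in WT cells and 1.58-fold higher in cells labelled Bach2-deficient (0.63 and 0.66), with a range over all alternatives of 0.33 to 0.93 and 0.39 to 0.91. S100a10 was lower by 1.35-fold in WT cells and 1.38-fold in the other group (-0.43 and -0.47), and its difference also kept its sign, from -0.73 to -0.14 and from -0.73 to -0.21. Vim stood at -0.34 and -0.37 on the log2 scale and ranged from -0.63 to -0.039 and from -0.64 to -0.12. Lgals3 was the only member higher by more than the probe scatter in WT cells, where that scatter was 0.15, and 6 were lower by more. Of all genes 42.4% were higher and 43.2% lower by more than it. S100a4, S100a6, S100a11 and Anxa1 had differences between -0.28 and -0.13, all of which turned positive with scaling to Cd3e except that of S100a6 in cells labelled Bach2-deficient. Lgals1 stood at 0.015 and -0.023, either sign being found under the alternatives. Anxa2 stood at 0.0079 in WT cells, again with either sign, and at 0.23 in cells labelled Bach2-deficient, the latter negative (-0.035) when arrays were scaled to their median. Crip1 was 1.15-fold lower in WT cells and 1.52-fold lower in the cells labelled Bach2-deficient (-0.20 and -0.60), the former positive (0.096) with scaling to Cd3e.

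The difference between genotypes in this response was small for most members. Over the 10 genes its median was -0.036 on the log2 scale, and 7 of the 10 were within the probe scatter of 0.10. Of 10810 genes 34.6% were higher and 34.7% lower by more than that scatter. None of the members (0) reached 2-fold, beside 1.82% of those genes at least 2-fold higher and 3% lower. The members beyond the scatter were Crip1 (-0.40), Anxa2 (0.22, and 0.31 by its other probe) and Anxa1 (0.13). For Crip1 12.4% of genes were as low. For Anxa2 22.4% were as high and for Anxa1 31.6%. With scaling to Cd3e the Anxa1 value came to 0.089, within the scatter.

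**Figure D4:**
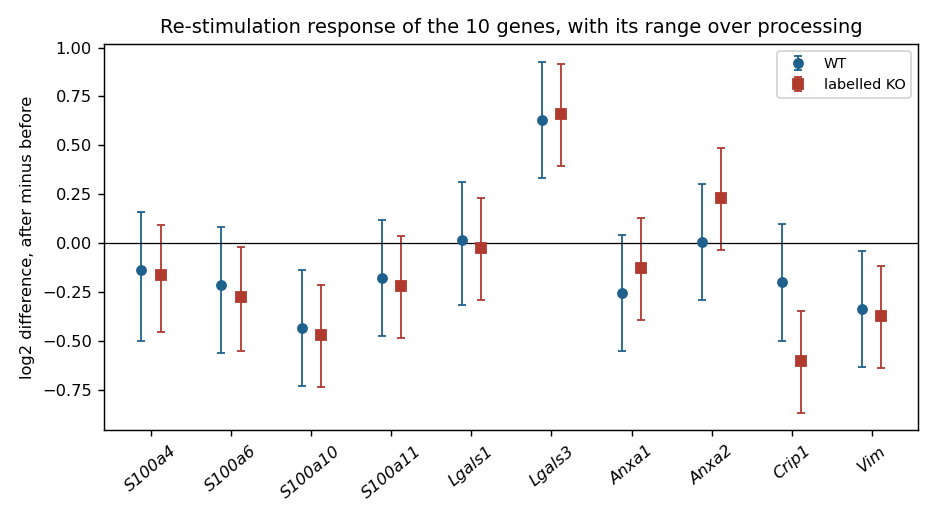
Log2 difference after minus before 4 h of re-stimulation (vertical axis) for each of the 10 genes for WT cells and those labelled Bach2-deficient, with bars for the range over the processing alternatives and not for replicate error. The bars of Lgals3 lie above 0 in both genotypes, those of S100a10 and Vim lie below 0, and most others span 0.

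Other genes of the same families were read from lists fixed with the members. Genotype counts past 2-fold in these lists stand beside 5.26% of all genes higher and 2.82% lower before re-stimulation. After it the shares were 5.17% and 3.85%. Of 13 other S100 genes 11 were on the array and 7 were well above background on at least 1 array. Before re-stimulation 1 of the 7 compared was at least 2-fold higher on the KO-labelled array and 0 lower (median 0.37), and after it 2 of 6 were higher and 0 lower (median 0.56). The first was S100a9, a neutrophil and monocyte alarmin, which was well above background only on the KO-labelled arrays (150 and 114) and so at least 9.94-fold and 6.95-fold higher (3.31 and 2.80, and 1.45 and 1.46 with normexp and quantile normalization). Its partner S100a8 did not clear the background on any of the arrays. S100a3, a calcium- and zinc-binding relative, was the other. Its signals were 69.0 and 88.8 before and 426 and 1213 after re-stimulation, a genotype difference of 0.37 before and 1.34 after. S100a1, chosen after its values were seen, gave 0.89 and 0.91.

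On chromosome 3, S100a3, S100a4, S100a5 and S100a6 lie beside each other in the RefSeq gene order, with S100a2, which was not on the array, overlapping S100a3. The neighbours differed sharply over re-stimulation. S100a3 was 8.61-fold higher after re-stimulation in WT cells and 16.8-fold higher in cells labelled Bach2-deficient (3.11 and 4.07). S100a5 went from 96.5 to 990 in WT cells and from 80.2 to 723 in the other group, 14.3-fold and 11.1-fold. S100a4 and S100a6, in the same cluster, differed by -0.28 to -0.14 over the same 4 h, and scaling to Cd3e, which added 0.30 and 0.26 to every gene, turned these positive except for S100a6 in cells labelled Bach2-deficient. S100a10 and S100a11, which neighbour each other elsewhere on that chromosome, stood at -0.47 to -0.18, that of S100a11 likewise turning positive. Whether the S100a3 probe also detects S100a2 transcripts was not tested.

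The other annexins and galectins were read by the same 2-fold rule. Of 8 other annexins compared 1 was at least 2-fold higher on the KO-labelled array before re-stimulation and 2 after it, beside 5.26% and 5.17% of all genes. None of them (0) was at least 2-fold lower. Anxa3, which like Anxa1 binds phospholipid, read 62.5 on the KO-labelled array before re-stimulation and did not clear the background on its WT counterpart (13.5), which makes it at least 4.15-fold higher (log2 2.05), although normexp and quantile normalization gave 0.74, short of 2-fold. After re-stimulation it read 27.6 and 194, 6.24-fold higher. Anxa8, named here because it was the other annexin past 2-fold after re-stimulation, was well above background only on the KO-labelled arrays, at signals of 29.2 and 37.8. Anxa6, a large annexin, was 1.03-fold and 1.06-fold lower between genotypes but 2.31-fold (WT) and 2.36-fold (labelled Bach2-deficient) lower over re-stimulation. Of 6 other galectins 1 was at least 2-fold lower before re-stimulation on the KO-labelled array and 0 after it, that gene being Lgals2 at a signal of 49.9 on the WT array. Lgals4, an epithelial-type galectin with tandem sugar-binding domains, was 2.39-fold and 2.25-fold lower over re-stimulation. With scaling to Cd3e neither Anxa6 (-0.91 and -0.98) nor Lgals4 (-0.96 and -0.92) reached 2-fold. Among 7 other LIM-domain and intermediate filament genes compared before re-stimulation, 2 (Lmna and Prph) were at least 2-fold higher on the KO-labelled array and 0 lower, and after it 0 of 8 were in either direction.

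**Figure D5:**
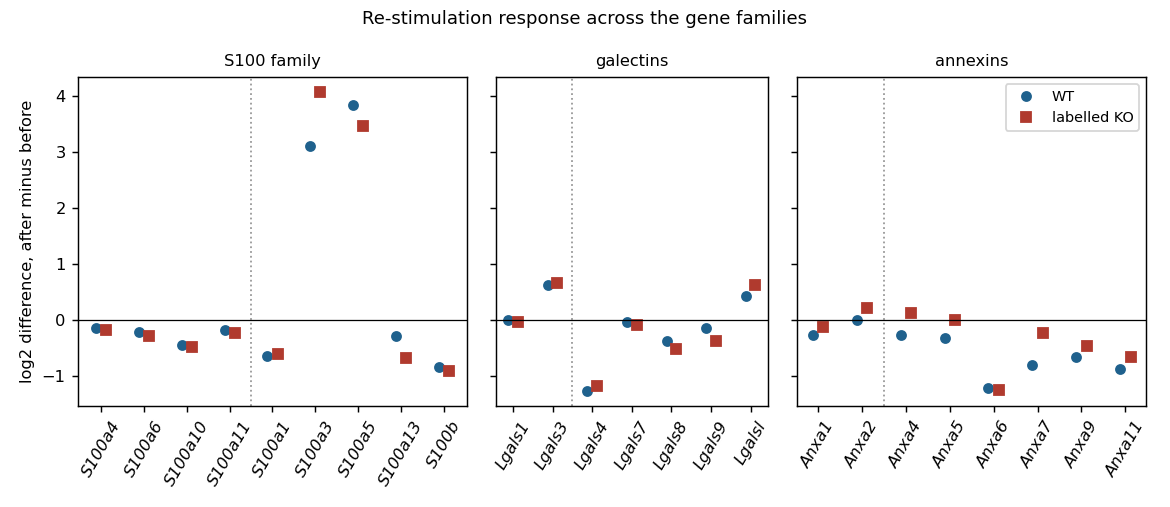
Log2 difference after minus before 4 h of re-stimulation (vertical axis) for the members, left of the dotted line in each panel, and for other genes of the same family well above background on all 4 arrays, for WT cells and those labelled Bach2-deficient. S100a3 (3.11 and 4.07) and S100a5 (3.84 and 3.47) stand far above the other S100 genes, and Lgals4 and Anxa6 are the lowest of their families.

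Among 22 listed binding partners, receptors and glycan enzymes, 20 were on the array and 14 could be compared before re-stimulation, of which 5 were at least 2-fold higher and 2 lower on the KO-labelled array (median -0.0047). After it 3 of 15 were higher and 1 lower. Havcr2, which encodes the galectin-9 receptor Tim-3, was 8.55-fold and 3.72-fold higher, with signals of 152 and 1290 before and 5230 and 21961 after. As the mean over its probes, the difference before re-stimulation was smaller, at 2.11 on the log2 scale. Gcnt1, an enzyme that builds core-2 O-glycans, read 50.9 and 377 before and 53.9 and 602 after, 7.45-fold and 9.91-fold apart (2.90 and 3.31, and 1.76 and 2.42 with normexp and quantile normalization). Lag3, a checkpoint receptor that has been described as a galectin-3 ligand, was 3.00-fold and 3.25-fold higher, at 85.6 and 255 before and 473 and 1734 after, the former difference (1.58) coming to 0.99, just short of 2-fold, with that alternative. Plaur, the urokinase receptor, was one of the lower genes. It read 60.9 on the WT array before re-stimulation and 18.3 on the KO-labelled array, where it was not flagged as well above background, a difference of -1.73 that came to -0.52, short of 2-fold, with normexp and quantile normalization. After re-stimulation it read 504 and 192, -1.57 on the log2 scale. Cd7, a galectin-1 ligand and the other lower gene, was -1.26 before re-stimulation and 0.36 after it. It read 783 and 326 before and 696 and 1005 after. Of 11 genes of this list with a response difference between genotypes, 1 was at least 2-fold higher (Cd7, 1.61) and 1 lower (Havcr2, -1.20). Of all genes 1.82% and 3% were so.

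Ahnak, Lmna, Lgals3bp and Cd7, like Anxa8, Lgals2 and Prph above and Itga4, Il18r1 and Il7r in the lists that follow, were chosen after their values were seen. Ahnak, a giant scaffold that binds the S100a10 and Anxa2 complex, was 2.02-fold higher before (2636 and 5295) and 1.11-fold higher after (2843 and 3549) re-stimulation. Lmna, the nuclear lamina filament, read 2289 and 8497 before and 10151 and 13637 after, 3.73-fold and 1.19-fold apart. Lgals3bp, which encodes a secreted galectin-3-binding glycoprotein, was 2.16-fold and 1.64-fold higher.

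The effector state of the cells was read from lists of T cell genes. Of all genes 5.26% were at least 2-fold higher and 2.82% lower between genotypes before re-stimulation, and 5.17% and 3.85% after it. Of 21 effector and memory genes 10 were at least 2-fold higher on the KO-labelled array before re-stimulation and 1 lower (median 0.88), and 9 higher and 2 lower after it (median 0.48). Klrg1, an inhibitory receptor of effector cells, read 17.0 and 198 before and 19.0 and 234 after, differences of 3.54 and 3.45 that came to 1.63 and 1.96 with normexp and quantile normalization. The lower gene at both points was Itga4 (-1.23 and -1.94), joined after re-stimulation by Il18r1 (-1.04). Of 12 genes of naive cells 1 (Il7r) was at least 2-fold higher and 7 lower before, and 1 higher and 8 lower after (medians -1.21 and -1.56). Ccr7, the receptor for lymph node entry, was 4.72-fold and 3.76-fold lower. Of 14 cortical cytoskeleton genes 0 reached 2-fold between genotypes, with medians of 0.020 before and -0.012 after re-stimulation. For so short a list that count is close to the shares of all genes. The members' medians of 0.35 and 0.31 lay between those of the cytoskeleton list and the effector list, as a description with no test.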

How the data were processed

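The 4 arrays were one-colour Agilent whole mouse genome arrays (Cy3) on 1 slide with 1 scan. The authors deposited a background-subtracted intensity for each spot from Feature Extraction (10.7 in the labels, 10.7.3.1 in the file headers), with flags for spots above background, saturated or uneven. A further deposited table of log2 values was the same, within 0.01, as the log2 intensity less the array's 75th percentile for 41001 to 41026 of 41173 probes. Its column medians were -4.09 to -3.77, so it was not centred per gene. No column belonged to another series.

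Flagged spots (107 to 120 per array) were left out, spots of a probe averaged as log2 values, and each array scaled to its 75th percentile (a signal of 313 to 436). The share of probes well above background was 53.6% to 54.0%, with lowest such signals of 14.5 to 17.2. Of the probes 27479 (66.7%) were named by transcript accession through a RefSeq table of GRCm38.p6, of which only names and gene order were used. A gene was read from its probe of highest mean signal. It was compared where that probe cleared the background on either of the 2 arrays, the dim side being raised to the array's lowest signal well above background, which makes "at least" folds bounds. The response difference used the 10810 genes that cleared it on every array. With 1 array per condition, genes were counted past a 2-fold size and no test was made. The precision is limited by the number of arrays. Computation used Python 3.11.15, numpy 2.4.6, and pandas 2.3.3. R 4.3.3 and its package limma 3.58.1 were used for normexp (offset 50) and quantile normalization. The scripts were tested on simulated data.

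The 10 genes and the lists were chosen with earlier results of these data known. From each list, at most 4 genes were named whose log2 difference was at least 1 in size in both genotype or both re-stimulation comparisons; others are said to have been chosen after their values were seen. Alternatives were other scalings, normexp background correction, the deposited log2 table, the mean over probes, other filters on dim probes and a 3-fold rule. The study's ChIP-seq was not used here.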

Additional observations from a re-analysis of the deposited data

How the results depend on the processing

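No paired analysis was possible because each condition had 1 array. Of 45 medians over the 10 genes under the alternatives, 36 stayed within the probe scatter of the reported value. All 100 counts of members past a fold rule were unchanged, each being 0 or 1. They had little room to move, since Anxa1 was the only member counted. The largest reported difference of any other was 0.66 (Lgals3). The median genotype difference before re-stimulation moved to 0.49 with scaling to Cd3e, and otherwise ranged down to 0.29. After re-stimulation it ranged from 0.28 to 0.41. For WT and for labelled Bach2-deficient cells, the median over re-stimulation was -0.49 and -0.46 with scaling to the median of all probes, -0.37 and -0.35 with quantile normalization, -0.37 and -0.35 with normexp and quantile normalization, and turned to 0.11 and 0.066 with scaling to Cd3e. Scaling moves every gene of an array by the same amount. The median of all genes over re-stimulation stood at -0.30 and -0.26 under median scaling, and at 0.29 and 0.26 under Cd3e scaling. The members' median minus that of all genes therefore could not move from -0.18 and -0.20 under either. Under the settings that could move it, it ranged from -0.52 to -0.15 in WT cells. In cells labelled Bach2-deficient it ranged from -0.49 to -0.17. Of the genes past 2-fold in WT cells over re-stimulation 49.3% were higher, against 29.1% with scaling to the median and 71.5% with Cd3e, and in cells labelled Bach2-deficient 48.9%, 30.8% and 67.7%. Of 450 values of single members 8 changed sign among differences beyond the probe scatter, all under scalings that add the same amount to every gene of an array, so they say nothing of these genes relative to the others. They were Anxa2 in cells labelled Bach2-deficient over re-stimulation (-0.035, scaling to the median) and, with scaling to Cd3e, Crip1 between genotypes before it (0.031), S100a6, S100a11, Anxa1 and Crip1 over re-stimulation in WT cells (0.082, 0.12, 0.041 and 0.096) and S100a4 and S100a11 in cells labelled Bach2-deficient (0.094 and 0.038). S100a13, not a member, changed sign in WT cells (0.016). The Anxa1 genotype difference ranged from 1.79 to 1.99 before and from 1.89 to 2.08 after re-stimulation. S100a9, near background, ranged from 1.45 to 5.02 before re-stimulation, Klrg1 from 1.63 to 3.68 and Anxa3 from 0.74 to 2.21. Each was lowest with normexp (offset 50) and quantile normalization. S100a9 and Anxa3 were highest with no filter and no floor for dim probes, and Klrg1 with scaling to Cd3e. The cause of these ranges was not tested.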
